A study of Mus musculus with 12 samples.

Results

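The interaction between the Tet2 and Id1 genotypes was measured in all 12 libraries of the series, as the difference between 2 responses. The first response was Id1KO minus WT, where both genotypes keep Tet2 by their labels. The second was dKO minus Tet2KO, where both lack it by their labels. For each gene the interaction was the second response minus the first on the log2 scale, so a gene at 0 responded to the Id1 genotype alike on both Tet2 backgrounds. The same number is obtained when the responses to the Tet2 genotype with and without Id1 are subtracted, and it therefore does not say which gene acts on which. Of 55450 genes in the table, 14346 had enough counts to be tested.

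The cells were donor lineage-negative, Kit-positive progenitors, sorted out of the marrow of mice that had received competitive bone marrow transplants. There were 3 libraries of each genotype: WT, Tet2KO, Id1KO and dKO, the last taken as the double knockout. All groups share transplantation into recipients alongside competitor marrow. The alleles, any Cre driver, age, sex, time after transplant and number of donors or recipients are not given in the sources used here. Each genotype carries 1 sample number in the titles, and its 3 libraries differ in a suffix of unstated meaning, so they may be repeats of 1 cell sample. Every p-value here then measures the spread between these libraries, which may be technical.

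TET2 is a dioxygenase that oxidises methylated cytosine in DNA and so opens the way to its removal, and its loss is a frequent lesion of clonal hematopoiesis. ID1 is a helix-loop-helix protein without a DNA-binding domain. It binds E proteins, partners of lineage factors such as the erythroid regulator TAL1, and keeps them off DNA. Lineage-negative Kit-positive marrow holds multipotent cells and the first committed erythroid, megakaryocytic, granulocytic and monocytic progenitors, whose shares set much of what a bulk library contains.

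Depth ranged from 15706407 to 19959183 estimated counts per library. Kit (314 to 377 CPM, counts scaled to a library of 1000000), Cd34 (279 to 370.0 CPM) and Myb (797 to 899.5 CPM) were abundant in every library, whereas Cd3e, Ly6g, Ms4a1, Col1a1 and Lepr never exceeded 3 counts. The label of a knockout did not go with a lower count of its gene. Tet2 was at 98.6, 97.6 and 102 CPM in the WT libraries, 127, 132 and 130.3 in the Tet2KO libraries, 90.3, 92.5 and 93.3 in the Id1KO libraries and 121, 119 and 115 in the dKO libraries. Gene-level counts cannot show a deletion of part of a gene, so the genotypes are used below as labelled. RNA of X inactivation and of the Y chromosome was present in every library in unequal amounts: Xist, the RNA of the inactive X chromosome, was at 262, 10.8, 64.9 and 16.7 CPM in WT, Tet2KO, Id1KO and dKO, and the Y-linked Ddx3y at 48.9, 87.7, 93.4 and 82.1 CPM. Both have an interaction of their own, and the part of this mixture in the other results was not tested. The part of these differences in the interactions was not tested.

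Id1 itself had an interaction, and in a direction that goes against its labels. It was at 1.76, 1.24 and 1.40 CPM in the WT libraries, 4.35, 3.63 and 3.61 in the Tet2KO libraries, 3.84, 3.69 and 4.35 in the Id1KO libraries and 4.18, 3.35 and 4.25 in the dKO libraries. The WT libraries were the low ones, and the other 9 overlapped. The response to the Id1 label was 1.43 ± 0.17 (log2, SE) with Tet2 intact and 0.03 ± 0.15 with Tet2 lost, which gave an interaction of -1.40 ± 0.23 (SE, adjusted p = 0.0003) by edgeR's quasi-likelihood test with Benjamini-Hochberg adjustment over all genes tested. Directions drawn below from Id1KO or dKO are therefore directions between libraries so labelled.

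Across the transcriptome, 2078 of 14346 genes (14.5%) had an interaction at an adjusted p under 0.05, 1070 of them positive (7.46%) and 1008 negative (7.03%). A positive value means that the Id1 response was higher where Tet2 was lost. Most were small: the median absolute interaction of the called genes was 0.29 on the log2 scale, 364 exceeded 1.5-fold and 138 exceeded 2-fold, 102 of these positive and 36 negative. The median over all genes tested was 0.009. In each of the 12 fits that left out 1 library, 1211 of the 2078 genes (8.44% of those tested) were called again.

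The 2 responses differed in how many genes they moved. Id1KO against WT called 2156 genes (15%), and dKO against Tet2KO called 3793 (26.4%). For 931 genes both responses were called, and 663 of these had no called interaction, all with the same sign on both backgrounds. Among the 2078 genes with an interaction, 1175 were called only in the comparison of dKO with Tet2KO, 484 only in that of Id1KO with WT, 171 in both with opposite signs and 97 in both with the same sign. The remaining 151 were called in neither.

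**Figure D1:**
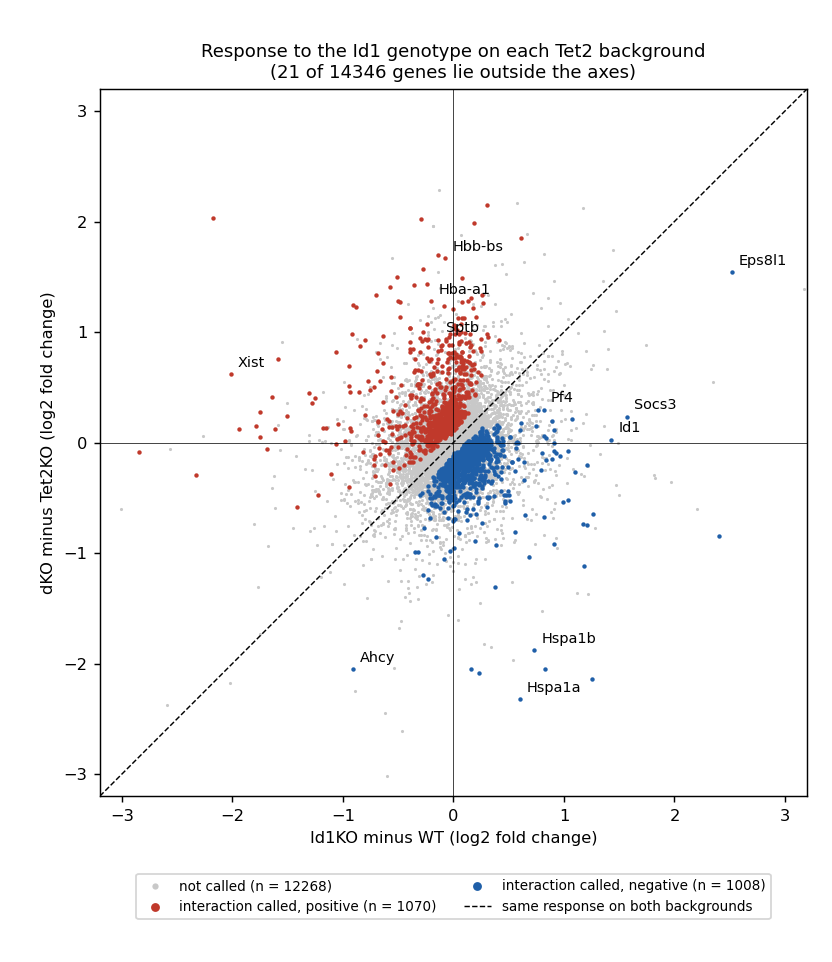
Each point is a gene, with its log2 fold change in Id1KO against WT on the x axis and in dKO against Tet2KO on the y axis; the dashed line marks equal responses. Red and blue points are the 1070 positive and 1008 negative interactions, and the red cloud runs upwards along an x of about 0.

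Which genotype set the interaction was read from the 4 means. A genotype was counted as standing apart when the gap from its mean log2(CPM + 0.5) to the nearest other genotype exceeded the range of the other 3. Tet2KO stood apart in 862 of the 2078 called genes (41.5%), lowest in 572 and highest in 290. The other genotypes stood apart less often: Id1KO in 205, WT in 188 and dKO in 168. No genotype stood apart in 655. Among all genes tested, Tet2KO was apart and low in 13.8% and apart and high in 9.31%, against 27.5% and 14.0% of the called genes. Among called genes with a genotype apart, those of the first kind, with Tet2KO apart and low, were the most frequent form. By this rule the means of WT, Id1KO and dKO lie nearer to each other than to Tet2KO, but they need not be alike.

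**Figure D2:**
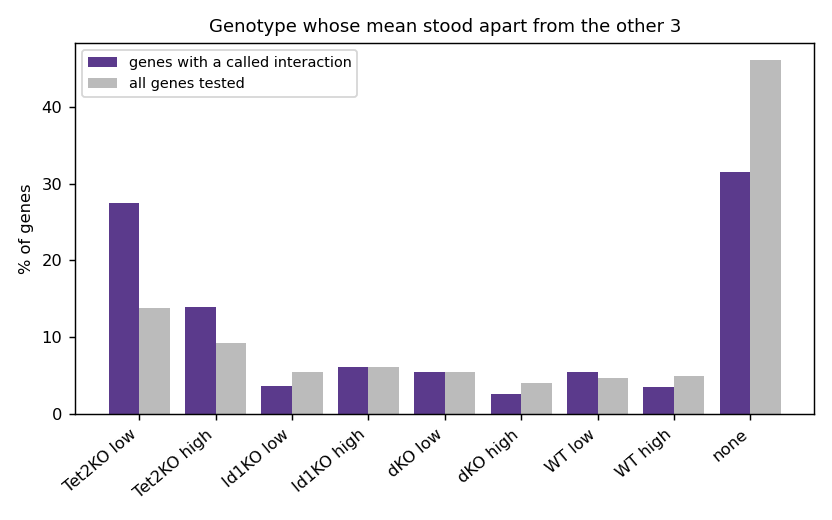
Bars give the percentage of genes in which the named genotype's mean was apart from the other 3, low or high, among the 2078 called genes (purple) and all 14346 tested (grey). The bar for Tet2KO low reaches 27.5% of the called genes and 13.8% of all tested.

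Most erythroid genes had a positive interaction. Of 42 tested genes for erythroid regulators and red cell membrane proteins, 34 had a positive interaction, none a negative one, and 8 were not called, beside 7.46% positive calls among all genes. The median interaction of the list was 0.71, against 0.009 for all genes, and its median response was 0.01 in Id1KO against WT and 0.71 in dKO against Tet2KO. In 28 of the 34 the Tet2KO libraries stood apart as the low ones. These lists were chosen with results on these data known, and the low erythroid level of the Tet2KO libraries was one of those results. In bulk libraries, fewer erythroid cells and less RNA per erythroid cell cannot be told apart.

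Klf1, the master activator of red cell genes, was at 68.4, 73.4 and 71.4 CPM in the WT libraries, 41.5, 40.3 and 40.3 in the Tet2KO libraries, 71.4, 74.5 and 70.4 in the Id1KO libraries and 69.9, 66.3 and 66 in the dKO libraries. All 3 Tet2KO libraries lay far below the other 9, and dKO overlapped WT. The interaction was 0.71 ± 0.06 (SE, adjusted p = 3.4e-08). Gata1, which encodes the zinc-finger factor required for erythroid and megakaryocytic maturation, followed it at 51.6, 52.1 and 51 CPM in the WT libraries, 29.7, 31.2 and 32.3 in the Tet2KO libraries, 54, 53.2 and 52.5 in the Id1KO libraries and 50.01, 48.9 and 49.4 in the dKO libraries, with an interaction of 0.62 ± 0.06 (SE, adjusted p = 3.7e-07). The receptor for erythropoietin, Epor, was at 27.4, 25.2 and 26 CPM in the WT libraries, 13.6, 14 and 14.3 in the Tet2KO libraries, 28.1, 26.6 and 26.4 in the Id1KO libraries and 25.7, 22.5 and 23.6 in the dKO libraries. Here too the 3 Tet2KO libraries lay below all others, and the interaction was 0.73 ± 0.09.

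The membrane skeleton genes behaved alike. Sptb encodes the beta chain of erythroid spectrin, Ank1 the ankyrin that anchors it, and Add2 an adducin at the spectrin junctions. Sptb was at 55.3, 50.1 and 53.7 CPM in the WT libraries, 27.3, 25.6 and 26.5 in the Tet2KO libraries, 47.8, 48.7 and 48.3 in the Id1KO libraries and 52.9, 47.8 and 50.7 in the dKO libraries. Every Tet2KO library was far below the other 9, for an interaction of 1.07 ± 0.07 (SE, adjusted p = 1.5e-09). Ank1 gave 1.01 ± 0.05 and Add2 1.02 ± 0.06. Epb42, which ties band 3 to the skeleton, was at 5.44, 5.05 and 4.54 CPM in the WT libraries, 2.21, 2.68 and 2.53 in the Tet2KO libraries, 4.78, 4.94 and 6.22 in the Id1KO libraries and 8.11, 6.47 and 6.38 in the dKO libraries, and dKO was then the highest genotype (interaction 1.41 ± 0.20 (SE, adjusted p = 9.4e-05)). Slc4a1, band 3 itself, had the largest interaction of the list at 2.32 ± 0.47, from levels of only 0.840, 0.363, 0.687 and 1.51 CPM. Dmtn, the skeletal protein dematin, gave 1.49 ± 0.25.

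Enzyme genes of the same lineage were also in the list. Carbonic anhydrases Car2 and Car1 were the most abundant members. Car2 was at 482, 495 and 485 CPM in the WT libraries, 272, 271 and 273 in the Tet2KO libraries, 509, 506 and 509 in the Id1KO libraries and 466, 469 and 468 in the dKO libraries, which gave 0.72 ± 0.03 (SE, adjusted p = 5.4e-12). For Car1 the dKO libraries, at 443, 442 and 438 CPM, stayed under the WT libraries at 480.2, 514 and 485, and the interaction was 0.54 ± 0.04. Ctse, cathepsin E, differed from the pattern: its levels were 176, 52.7, 109 and 82.5 CPM, so the 4 genotypes were all separate and the Id1 response was -0.69 ± 0.03 with Tet2 and 0.65 ± 0.04 without it.

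Not every erythroid gene took part. Tfrc, the transferrin receptor that brings in iron, was higher in both comparisons, by 0.43 ± 0.03 and 0.56 ± 0.03, and its interaction was 0.13 ± 0.05 (SE, adjusted p = 0.059). Nfe2, whose product activates globin and platelet genes, gave -0.10 ± 0.04 (SE, adjusted p = 0.13), and Sox6, a repressor of embryonic globin, -0.34 ± 0.13 (SE, adjusted p = 0.099). Tal1, tested with the E proteins, gave 0.13 ± 0.04 (SE, adjusted p = 0.056). These 4 did not pass the test.

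**Figure D3:**
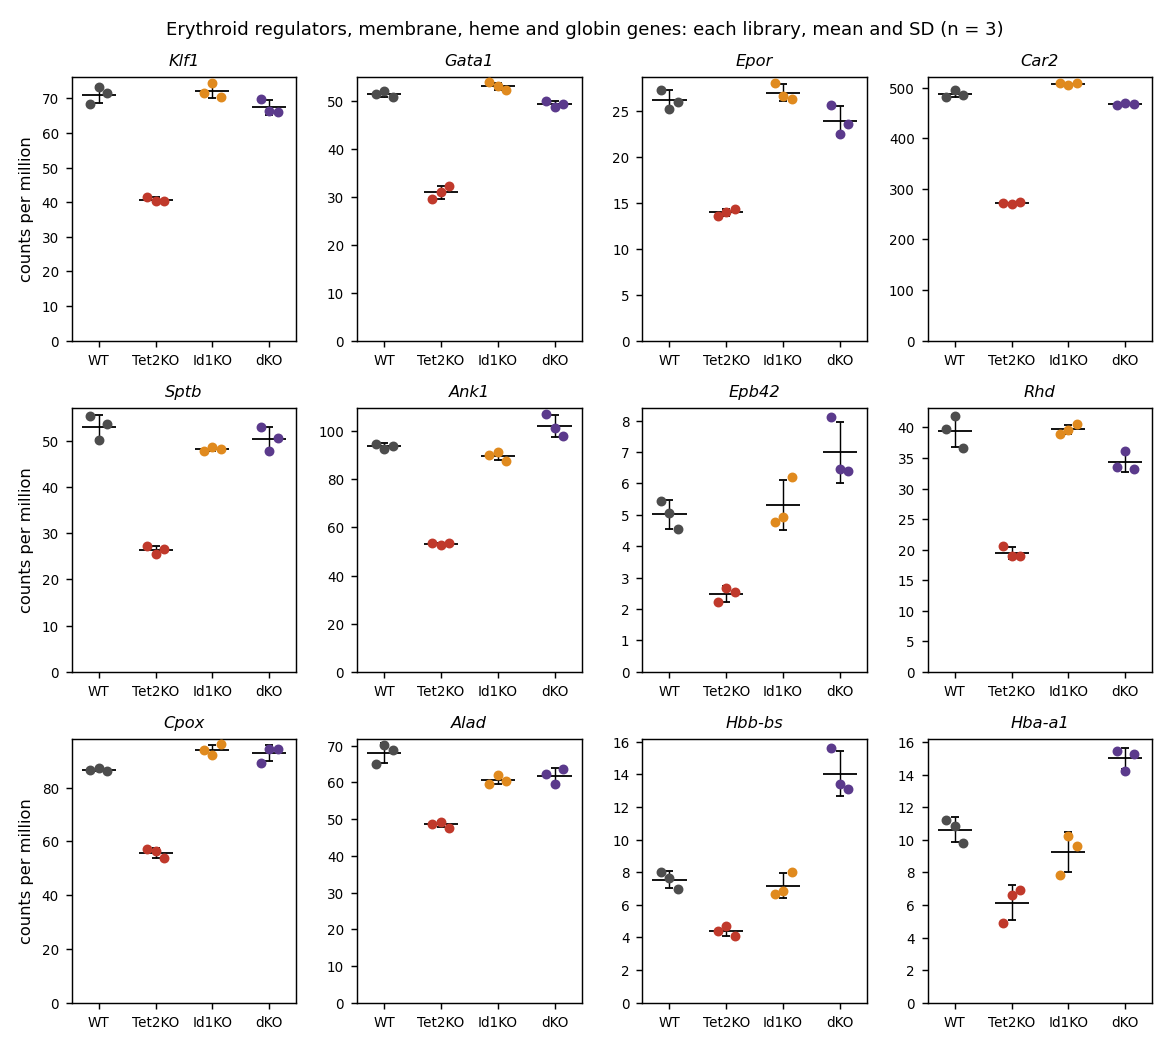
Each panel shows the CPM of 1 gene in the 12 libraries (points), with the mean (bar) and SD (whiskers) of 3 libraries for WT, Tet2KO, Id1KO and dKO. Tet2KO is low for Klf1, Gata1, Epor, Car2, Sptb, Ank1, Epb42, Rhd, Cpox and Alad, while Ank1, Epb42 and the globins Hbb-bs and Hba-a1 are also highest in dKO.

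The letters in front of some of these genes are shown because GATA1 and KLF1 act through short motifs. In the 250 bases before the RefSeq start (GRCm38.p6), AGATAA on either strand, a GATA factor site, was found in 8 of the 30 erythroid windows at hand (26.7%) and in 605 of 9878 windows of all tested genes (6.1%). It was in 7.6% of the windows of all genes called positive and 4.8% of those called negative. CCACACCC, a KLF1 site, was in none of the 30 and in 3.6% of all. CANNTG, the E-box bound by E proteins (N is any base), was in 56.7% of the erythroid and 56.6% of all windows. The motifs were searched apart, so a base could count for more than 1 of them. A match is a description of letters, and no binding was measured. Rhd (a Rhesus blood group protein), Pklr (pyruvate kinase of red cells and liver) and Ces2g (a carboxylesterase) have the match within 50 bases of a start on which RefSeq and GENCODE coincide; capitals mark AGATAA or its reverse complement.
Rhd (chr4:134864286-134864535, plus strand): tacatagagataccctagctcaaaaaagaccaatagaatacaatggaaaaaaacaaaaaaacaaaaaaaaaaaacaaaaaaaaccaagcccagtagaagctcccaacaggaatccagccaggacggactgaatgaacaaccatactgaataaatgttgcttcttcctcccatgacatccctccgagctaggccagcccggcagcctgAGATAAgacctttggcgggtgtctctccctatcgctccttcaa
Pklr (chr3:89135892-89136141, plus strand): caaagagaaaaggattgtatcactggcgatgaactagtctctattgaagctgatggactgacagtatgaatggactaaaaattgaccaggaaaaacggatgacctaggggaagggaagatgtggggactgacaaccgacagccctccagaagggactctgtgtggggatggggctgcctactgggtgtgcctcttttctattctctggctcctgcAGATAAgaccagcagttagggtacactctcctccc
Ces2g (chr8:104961468-104961717, plus strand): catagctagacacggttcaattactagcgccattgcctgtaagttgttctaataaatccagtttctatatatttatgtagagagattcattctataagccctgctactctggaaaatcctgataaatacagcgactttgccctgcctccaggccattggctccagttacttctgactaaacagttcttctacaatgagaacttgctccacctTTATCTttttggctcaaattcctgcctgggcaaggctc

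The 3 genes behind these windows had like values. Rhd was at 39.8, 41.9 and 36.6 CPM in the WT libraries, 20.6, 18.9 and 19 in the Tet2KO libraries, 38.9, 39.6 and 40.5 in the Id1KO libraries and 33.5, 36.2 and 33.2 in the dKO libraries, with an interaction of 0.81 ± 0.08 (SE, adjusted p = 9e-07). Pklr gave 0.85 ± 0.07 (SE, adjusted p = 2.7e-08) from mean levels of 57.5, 33, 60.1 and 62.3 CPM, and Ces2g 0.71 ± 0.05 (SE, adjusted p = 3.3e-09) from 87.8, 54.6, 84.9 and 86.4 CPM. In all 3 the Tet2KO libraries were the low ones. Most erythroid genes with an interaction had no AGATAA in the window, Klf1, Sptb and Add2 among them.

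The 4 adult globin genes had the largest median interaction of the lists described, at 1.71. All 4 were called, beside 14.5% of all genes tested. Hbb-bs, a beta globin, was at 7.98, 7.63 and 6.97 CPM in the WT libraries, 4.41, 4.71 and 4.09 in the Tet2KO libraries, 6.64, 6.82 and 8.03 in the Id1KO libraries and 15.6, 13.4 and 13.1 in the dKO libraries. Tet2KO was lowest and dKO highest, and neither overlapped the pair of WT and Id1KO. Hba-a1, an alpha globin, was at 11.2, 10.8 and 9.78 CPM in the WT libraries, 4.90, 6.61 and 6.95 in the Tet2KO libraries, 7.85, 10.3 and 9.63 in the Id1KO libraries and 15.5, 14.2 and 15.3 in the dKO libraries, and dKO was above every other library. The genes of each pair are close copies, so their counts were also summed before the fit: the 2 beta genes together gave 1.78 ± 0.13 (adjusted p = 6e-09) and the 2 alpha genes 1.56 ± 0.10 (adjusted p = 1.5e-09). In no library did a globin gene reach 20 CPM.

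Heme synthesis moved with them, though less. Among 16 genes tested, 9 were positive and 1 negative, so 62.5% were called beside 14.5% of all genes tested. The list had a median of 0.24 and median responses of 0.01 in Id1KO against WT and 0.32 in dKO against Tet2KO. Cpox, coproporphyrinogen oxidase, was at 86.5, 87.1 and 86.1 CPM in the WT libraries, 57.2, 56.5 and 53.7 in the Tet2KO libraries, 94.1, 92.2 and 96.1 in the Id1KO libraries and 89.3, 94.4 and 94.5 in the dKO libraries. The Tet2KO libraries were apart as the low ones, and the interaction was 0.61 ± 0.05 (SE, adjusted p = 3.4e-08). Alad and Uros, earlier enzymes of the pathway, gave 0.51 ± 0.06 and 0.55 ± 0.11, and Fech, which inserts the iron, 0.36 ± 0.06. Tspo2, an erythroid translocator protein, had the largest value at 0.85 ± 0.11 (SE, adjusted p = 1.8e-05). Alas1, the housekeeping first enzyme, had the smallest positive value of the named genes that passed, 0.20 ± 0.04. The single negative gene was Slc25a37, which was not called in 9 of the 12 fits with a library left out.

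Growth and protein upkeep genes showed a weaker interaction of the same sign. Of 49 genes for tRNA synthetases and targets of ATF4, the amino acid stress factor, 18 were positive and 3 negative, with a median of 0.11. Calls were thus made for 42.9% of them, beside 14.5% of all genes tested. Asns, asparagine synthetase, was at 63.2, 72.1 and 66.8 CPM in the WT libraries, 43.9, 42 and 41.2 in the Tet2KO libraries, 76, 76.5 and 84 in the Id1KO libraries and 67.8, 67.4 and 62.7 in the dKO libraries, so Tet2KO was low and the interaction was 0.41 ± 0.07 (SE, adjusted p = 0.00066). Hars, the histidine enzyme, gave 0.30 ± 0.04, and the more abundant Eprs 0.16 ± 0.04. Cebpg and Vldlr, both ATF4 targets, were negative, at -0.33 ± 0.07 and -1.04 ± 0.23. Tet2KO was the low genotype in 17 of the 18 positive genes.

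Proteasome subunits, replication factors and antioxidant genes had similar counts. In the proteasome list 15 of 43 were positive and 1 negative (median 0.11, 37.2% called). In DNA replication 15 of 62 were positive and 1 negative (median 0.11, 25.8%). Among antioxidant and iron genes 17 of 52 were positive and 3 negative (median 0.13, 38.5%). Of all genes tested 14.5% were called. Mt2, a metal-binding metallothionein, was at 25.1, 25.4 and 25.5 CPM in the WT libraries, 14.1, 12.7 and 14 in the Tet2KO libraries, 23.3, 23.5 and 23.6 in the Id1KO libraries and 26.8, 23 and 25.3 in the dKO libraries, with an interaction of 0.99 ± 0.09 (SE, adjusted p = 1.4e-07). Glrx5 and Slc40a1, which serve iron-sulphur cluster assembly and iron export, gave 0.43 ± 0.07 and 0.39 ± 0.09. Ccne1, cyclin E1, gave 0.37 ± 0.07 and Psmd11, a proteasome lid subunit that was highest in dKO, 0.33 ± 0.06. By contrast, of 84 cytosolic ribosomal protein genes 1 was called, negative, and the list's median was -0.005.

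Heat shock chaperones split into 2 parts. The inducible Hspa1a and Hspa1b had the most negative interactions of all genes named here, while 16 other members were positive and small. Hspa1a was at 12.2, 12.9 and 12.3 CPM in the WT libraries, 45.3, 44.3 and 41.9 in the Tet2KO libraries, 19.4, 18.3 and 18.8 in the Id1KO libraries and 9.38, 8.86 and 8.03 in the dKO libraries. The Tet2KO libraries were more than 3 times the WT level, Id1KO was above WT, and dKO was below every other library. Hspa1b, its neighbour, was at 17.3, 17 and 18.6 CPM in the WT libraries, 57.8, 57.2 and 55.3 in the Tet2KO libraries, 29.2, 31.3 and 27.3 in the Id1KO libraries and 14.7, 13.9 and 17.7 in the dKO libraries. The interactions were -2.92 ± 0.09 (SE, adjusted p = 8.2e-15) and -2.61 ± 0.10 (SE, adjusted p = 1.6e-13). Since the genes are near-identical, their counts were also summed, which gave -2.74 ± 0.07 (adjusted p = 1.4e-16).

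Both genes lie on the minus strand of chromosome 17 in GRCm38, and their upstream windows are shown because the heat shock factor binds repeats of GAA. The 250-base windows differ at 3 positions (98.8% identity). Each holds 1 match to GAANNTTC (capitals), a pair of such units on opposite strands, 104 to 97 bases before the start. This motif was in 6 of 43 windows of the chaperone list (14.0%) and in 5.0% of all tested genes.
Hspa1a (chr17:34972157-34972406, minus strand): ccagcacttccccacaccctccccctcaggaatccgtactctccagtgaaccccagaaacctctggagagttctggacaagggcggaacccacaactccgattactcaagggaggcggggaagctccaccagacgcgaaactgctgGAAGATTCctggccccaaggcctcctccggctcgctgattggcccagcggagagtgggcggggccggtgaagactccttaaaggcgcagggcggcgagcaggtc
Hspa1b (chr17:34959239-34959488, minus strand): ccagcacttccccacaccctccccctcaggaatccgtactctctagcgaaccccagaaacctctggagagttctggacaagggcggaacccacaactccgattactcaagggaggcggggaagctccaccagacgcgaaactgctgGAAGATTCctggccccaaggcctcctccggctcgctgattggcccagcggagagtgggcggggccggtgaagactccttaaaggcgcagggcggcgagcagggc

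Most other chaperones did not follow that pair. Of all 53 genes tested, Hspa1a and Hspa1b included, 16 were positive and 4 negative, with a median of 0.08. That is 37.7% called, beside 14.5% of all genes tested, and all 16 positive members were lowest in Tet2KO. Hspd1, the mitochondrial chaperonin, was at 608, 623 and 604 CPM in the WT libraries, 504, 504 and 499 in the Tet2KO libraries, 617, 602 and 646 in the Id1KO libraries and 623, 652 and 629 in the dKO libraries, with an interaction of 0.31 ± 0.04 (SE, adjusted p = 2.4e-05). Hspa8, the constitutive relative of Hspa1a and by far the most abundant member, gave 0.08 ± 0.04 (SE, adjusted p = 0.17), which did not pass. Dnajb1, a co-chaperone also induced by heat, was negative but small, at -0.17 ± 0.05 (SE, adjusted p = 0.021). The positive count moved with single libraries: it was 8 without either Tet2KO replicate 2 or Id1KO replicate 1. The negative count was 2 without Tet2KO replicate 1 and by DESeq2.

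Megakaryocyte and platelet genes ran the other way. Of 30 tested, 12 were negative and 2 positive, beside 7.03% negative calls among all genes, and the median was -0.26. In Id1KO against WT 12 members rose and 1 fell, whereas in dKO against Tet2KO 5 rose and 7 fell. The median responses were 0.19 in Id1KO against WT and -0.01 in dKO against Tet2KO. Pf4, platelet factor 4, was at 30.2, 28 and 29.7 CPM in the WT libraries, 26.5, 24.8 and 27.1 in the Tet2KO libraries, 51.9, 50.7 and 52 in the Id1KO libraries and 35, 32.7 and 29 in the dKO libraries. Only the Id1KO libraries were high, and dKO overlapped WT. Its interaction was -0.52 ± 0.08 (SE, adjusted p = 0.0003). Vwf, von Willebrand factor, was at 38.4, 38.4 and 34.9 CPM in the WT libraries, 34.9, 36.3 and 41 in the Tet2KO libraries, 56.6, 58.6 and 54.6 in the Id1KO libraries and 42.8, 39.99 and 38.6 in the dKO libraries, with Id1KO again alone and an interaction of -0.49 ± 0.08 (SE, adjusted p = 0.00046). Itga2b, the integrin CD41, gave -0.54 ± 0.07 (SE, adjusted p = 1.7e-05). The abundant Fli1, a megakaryocyte transcription factor, gave -0.26 ± 0.05 and Plek, platelet pleckstrin, -0.19 ± 0.05.

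The 2 positive members have a place in other cells. Gfi1b, a repressor shared with the erythroid lineage, was at 59.3, 59.8 and 65.1 CPM in the WT libraries, 34.1, 33.2 and 32.3 in the Tet2KO libraries, 65.2, 64.6 and 63.6 in the Id1KO libraries and 58.6, 56.8 and 54.5 in the dKO libraries, the erythroid form with Tet2KO low, and its interaction was 0.70 ± 0.06 (SE, adjusted p = 2.1e-07). Thbs1, thrombospondin, gave 0.60 ± 0.17 (SE, adjusted p = 0.021) and lost its call without Tet2KO replicate 2 or 3. Ppbp, a platelet chemokine, had the most negative value, -1.83 ± 0.56 (SE, adjusted p = 0.032), but from no more than 30 counts a library, and it kept its call in 5 of the 12 fits with a library left out.

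Eosinophil granule genes gave a like form. Of 25 mast cell, basophil and eosinophil genes, 12 were negative and none positive, with a median of -0.21. That is 48%, beside 7.03% negative calls among all genes. DESeq2 called 9 as negative, and 8 were called without Tet2KO replicate 2. Prg2, the eosinophil major basic protein, was at 183, 191 and 186 CPM in the WT libraries, 152, 152 and 154 in the Tet2KO libraries, 257, 254 and 249 in the Id1KO libraries and 134, 125 and 135 in the dKO libraries. It was thus high in Id1KO and lowest in dKO, and the interaction was -0.66 ± 0.04 (SE, adjusted p = 1.1e-09). Epx, eosinophil peroxidase, was at 47.2, 47.8 and 44.1 CPM in the WT libraries, 35.7, 36.9 and 37.8 in the Tet2KO libraries, 67.5, 71.3 and 67.2 in the Id1KO libraries and 34.1, 35.9 and 36.9 in the dKO libraries, with -0.61 ± 0.07 (SE, adjusted p = 2.7e-06). The eosinophil ribonucleases Ear6 and Ear1 gave -0.90 ± 0.18 and -0.99 ± 0.25, and Il5ra, the receptor chain that binds interleukin-5, -1.56 ± 0.44 (SE, adjusted p = 0.021) at only 0.978, 0.943, 2.01 and 0.645 CPM. The Il5ra call held in 10 of the 12 fits with a library left out. For these 5 genes Id1KO had the highest mean. The mast cell protease Cpa3 and the histamine-forming Hdc differed from them: dKO was low, and the interactions were -0.43 ± 0.07 and -0.24 ± 0.05.

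**Figure D4:**
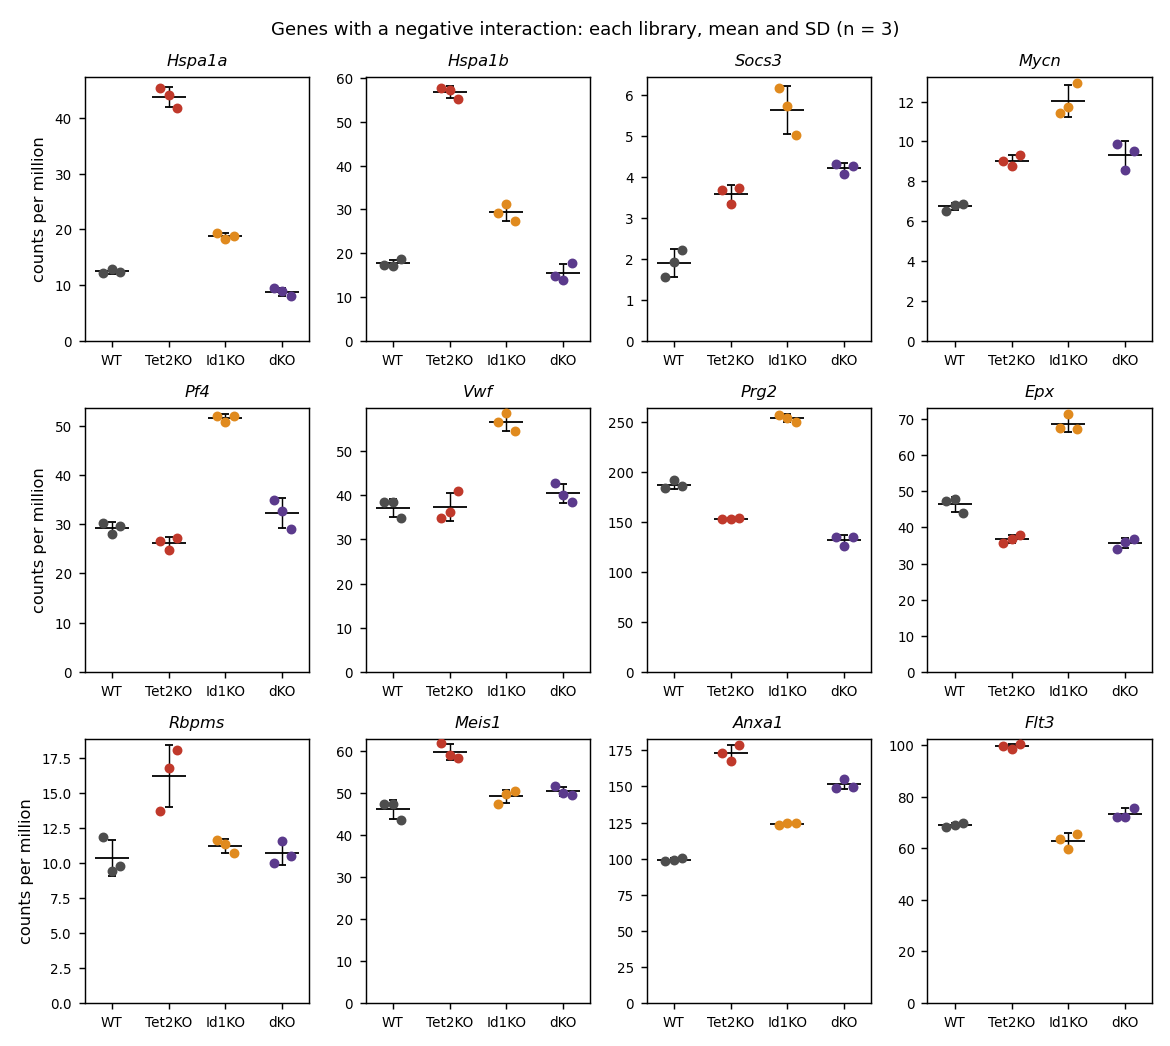
Each panel shows the CPM of 1 gene in the 12 libraries (points), with the mean (bar) and SD (whiskers) of 3 libraries per genotype. Id1KO is the high genotype for Socs3, Mycn, Pf4, Vwf, Prg2 and Epx, and Tet2KO for Hspa1a, Hspa1b, Rbpms, Meis1, Anxa1 and Flt3.

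Stem and multipotent genes were negative in 16 of 47 and positive in 3, beside 7.03% negative and 7.46% positive calls among all genes. The median was -0.26, with median responses of 0.10 in Id1KO against WT and -0.17 in dKO against Tet2KO. DESeq2 called 9 as negative, and 11 were called without Tet2KO replicate 1 or Id1KO replicate 1. Mycn, a transcription factor of the MYC family, was at 6.53, 6.81 and 6.86 CPM in the WT libraries, 9.01, 8.76 and 9.32 in the Tet2KO libraries, 11.4, 11.7 and 12.9 in the Id1KO libraries and 9.89, 8.56 and 9.51 in the dKO libraries. WT was the low genotype and Id1KO the high one, and the interaction was -0.79 ± 0.13 (SE, adjusted p = 0.00024). Prdm16, a zinc-finger regulator of stem cell maintenance, had the same order at 2.22, 2.96, 4.67 and 3.44 CPM and gave -0.85 ± 0.23 (SE, adjusted p = 0.018). Its call was lost in 1 of the 12 fits with a library left out.

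Other members of the list were high in Tet2KO instead. Rbpms, an RNA-binding protein, was at 11.8, 9.38 and 9.78 CPM in the WT libraries, 13.7, 16.7 and 18 in the Tet2KO libraries, 11.6, 11.3 and 10.7 in the Id1KO libraries and 9.95, 11.6 and 10.5 in the dKO libraries, so Tet2KO was above the other 3, which overlapped. Its interaction was -0.72 ± 0.15 (SE, adjusted p = 0.0026). Meis1, the homeobox partner of the Hox factors, was at 46, 59.7, 49.2 and 50.3 CPM and gave -0.34 ± 0.06 (SE, adjusted p = 0.00088). Hlf, a leucine zipper factor of long-term stem cells, gave -0.47 ± 0.12 (SE, adjusted p = 0.015) from 10.5, 13.1, 9.67 and 8.71 CPM. Angpt1 and Txnip, a niche ligand and a brake on glucose uptake, were low in dKO and gave -0.52 ± 0.04 and -0.49 ± 0.04. Kit, the positive marker of the sort, gave -0.09 ± 0.04 (SE, adjusted p = 0.12) and the progenitor marker Cd34 -0.04 ± 0.04 (SE, adjusted p = 0.57), and neither was called.

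Neutrophil granule genes were negative in 12 of 31 and positive in 2, with a median of -0.13. In all 45.2% were called, beside 14.5% of all genes tested. The values were small for the abundant primary granule genes. Mpo, myeloperoxidase, was at 9917, 9889 and 9928 CPM in the WT libraries, 11089.9, 11061 and 11272 in the Tet2KO libraries, 8449, 8799 and 8035 in the Id1KO libraries and 8824, 8021 and 8671 in the dKO libraries, and its interaction of -0.16 ± 0.05 (SE, adjusted p = 0.033) was lost in 5 of the 12 fits with a library left out. Elane, neutrophil elastase, gave -0.12 ± 0.05 (SE, adjusted p = 0.11) and did not pass. Anxa1, annexin A1, was at 98.2, 98.9 and 100.3 CPM in the WT libraries, 173, 167 and 179 in the Tet2KO libraries, 123, 124 and 124 in the Id1KO libraries and 149, 155 and 149.9 in the dKO libraries. Here all 4 genotypes were separate, and the Id1 response had opposite signs, 0.32 ± 0.03 with Tet2 and -0.19 ± 0.03 without, for an interaction of -0.52 ± 0.04 (SE, adjusted p = 4.1e-08). Fcnb, a ficolin of granules, was high in Tet2KO and gave -0.57 ± 0.13.

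The 2 positive granule genes were Ngp, a secondary granule protein, at 0.83 ± 0.21 (SE, adjusted p = 0.011), and Chil1, a chitinase-like protein. Chil1 was at 5.13, 3.61 and 5.35 CPM in the WT libraries and under 1 CPM in each of the other 9. Its interaction of 2.76 ± 0.91 (SE, adjusted p = 0.046) therefore rests on genotypes near the limit of detection, and it kept its call in 4 of the 12 fits with a library left out. Summed markers of mature neutrophils (S100a8, S100a9, Ltf, Camp and Ly6g) were at 56.1 to 62.0 CPM in WT, 77.1 to 81.8 in Tet2KO, 60.2 to 63.8 in Id1KO and 76.9 to 85.8 in dKO. The sum was higher wherever Tet2 was labelled lost. S100a8 made up most of it, at 42.2, 55.3, 42.4 and 52.2 CPM in WT, Tet2KO, Id1KO and dKO. Camp was instead lowest in Tet2KO, at 2.09, 1.10, 1.87 and 1.76 CPM, and Ly6g was at or near 0 in every library. The part of such cells in the granule gene values was not tested.

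Transcription factors of the myeloid branch were divided, with 4 positive and 9 negative of 31 and a median of -0.02. Calls made up 41.9% of the list, beside 14.5% of all genes tested. Irf8, which directs monocyte and dendritic fate, was at 341, 335 and 345 CPM in the WT libraries, 349, 350.3 and 351 in the Tet2KO libraries, 268, 270.4 and 259 in the Id1KO libraries and 364, 341 and 357 in the dKO libraries. Id1KO alone was low, and the interaction was 0.37 ± 0.04 (SE, adjusted p = 1.8e-06). Klf2, a quiescence factor, was at 37.3, 33.9 and 35 CPM in the WT libraries, 22.2, 21 and 21.7 in the Tet2KO libraries, 14.6, 16.2 and 14.6 in the Id1KO libraries and 16.5, 16.4 and 13.7 in the dKO libraries, highest in WT, with 0.75 ± 0.10 (SE, adjusted p = 3.7e-05). Klf3, a repressor of KLF1 targets, gave 0.38 ± 0.07, Cebpb, a factor of emergency granulopoiesis, -0.45 ± 0.12, and Zeb2 0.17 ± 0.04. Myb, required by most progenitors, did not pass the test at -0.04 ± 0.03 (SE, adjusted p = 0.43).

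Lymphoid genes had 2 positive and 1 negative calls of 32, or 9.4% beside 14.5% of all genes tested, and their median was -0.24. Ighm, the immunoglobulin mu chain, was at 118, 116 and 117 CPM in the WT libraries, 137, 134 and 132 in the Tet2KO libraries, 96.3, 93.9 and 92.8 in the Id1KO libraries and 134, 122 and 129 in the dKO libraries, low in Id1KO alone like Irf8, and its interaction was 0.24 ± 0.05 (SE, adjusted p = 0.0015). Ikzf1, Ikaros, gave 0.21 ± 0.04 and Cd79b, part of the B cell receptor, -0.34 ± 0.09.

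Cytokine signalling genes were more often negative than positive. Of 38 receptors, 10 were negative and 3 positive (median -0.12, 34.2% called). Of 35 JAK-STAT and SOCS genes, 10 were negative and 1 positive (median -0.08, 31.4%). Among all genes tested 14.5% were called. In the second list 6 were called negative by DESeq2, and 6 without Id1KO replicate 2 or dKO replicate 3. Socs3, the feedback inhibitor of STAT3 signalling, was at 1.56, 1.91 and 2.22 CPM in the WT libraries, 3.68, 3.34 and 3.72 in the Tet2KO libraries, 6.15, 5.72 and 5.01 in the Id1KO libraries and 4.31, 4.07 and 4.25 in the dKO libraries. WT was lowest and Id1KO highest, and the interaction was -1.34 ± 0.20 (SE, adjusted p = 0.00015). Pim1, a kinase gene induced by STAT5, was at 106, 99.3 and 103 CPM in the WT libraries, 115, 118 and 118 in the Tet2KO libraries, 156, 159 and 156 in the Id1KO libraries and 135, 127 and 134 in the dKO libraries, in the same order, with -0.44 ± 0.04 (SE, adjusted p = 1.1e-06). Flt3, the receptor of multipotent and dendritic progenitors, was at 68.2, 68.8 and 69.8 CPM in the WT libraries, 99.7, 98.4 and 100.2 in the Tet2KO libraries, 63.6, 59.5 and 65.4 in the Id1KO libraries and 72.1, 72.2 and 75.7 in the dKO libraries, high in Tet2KO alone, with -0.30 ± 0.05 (SE, adjusted p = 0.0005). Acvr1b, an activin receptor, gave -0.56 ± 0.07.

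Of 10 tested genes for TET, DNMT and ID proteins and their cofactors, 1 was positive and 3 negative, Id1 among them, which is 40% beside 14.5% of all genes tested. The list's median was -0.03. Tet1 was at 34.1, 32.1 and 33.2 CPM in the WT libraries, 39.1, 41 and 46.2 in the Tet2KO libraries, 29.7, 28.7 and 27.7 in the Id1KO libraries and 29.3, 29 and 30.9 in the dKO libraries, high in Tet2KO, with an interaction of -0.30 ± 0.08 (SE, adjusted p = 0.022). Tet3 did not pass the test (-0.04 ± 0.06 (SE, adjusted p = 0.73)), and neither did Id2 (-0.14 ± 0.15 (SE, adjusted p = 0.59)). Dnmt3a, the de novo DNA methyltransferase, gave -0.16 ± 0.05 (SE, adjusted p = 0.029). With a library left out, Tet1 kept its call in 10 and Dnmt3a in 6 of the 12 fits. Among 23 E proteins and their bHLH partners 2 were negative (1 by DESeq2) and none positive. That is 8.7%, beside 7.03% negative calls among all genes, with a list median of -0.001. The strongest was Mxd4, a MYC antagonist, at -0.27 ± 0.05 (SE, adjusted p = 0.0022), and Tcf3, which encodes the E2A proteins that ID1 binds, gave 0.15 ± 0.07 (SE, adjusted p = 0.18).

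Small structural and nucleolar RNAs had positive medians. Of 25 small structural RNAs 7 were positive and none negative (median 0.25), or 28% beside 7.46% positive calls among all genes. WT stood apart as high in 4 of the 7 and dKO in 3. Of 28 small nucleolar RNAs 6 were positive (21.4%) and none negative (median 0.29), with WT apart as high in 4. Rn7s2, a signal recognition particle RNA, was at 35384, 33918 and 32065 CPM in the WT libraries, 16128, 15181 and 15294 in the Tet2KO libraries, 18474, 19272 and 18211 in the Id1KO libraries and 23516, 18636 and 21784 in the dKO libraries, which gave 1.31 ± 0.08 (SE, adjusted p = 3e-10). All Rn7s RNAs together took 7.13 to 7.37% of the counts of the WT libraries and 4.48 to 5.25% of the other 9. Snora73b, a guide RNA of ribosomal RNA, was at 136, 128 and 120.1 CPM in the WT libraries, 105, 94.7 and 99.5 in the Tet2KO libraries, 80.4, 78.5 and 88.5 in the Id1KO libraries and 98.6, 94.6 and 109 in the dKO libraries, high in WT, with 0.65 ± 0.08 (SE, adjusted p = 9e-06). Snora73b was not summed with its near-identical copy Snora73a (98.0% identity), so its single-gene values are uncertain. Rn7sk, the RNA that holds back elongation factor b and the most even member, gave -0.01 ± 0.06 (SE, adjusted p = 0.94). The part of the Rn7s share in the other small RNA values was not tested.

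The list of long noncoding and imprinted RNAs had 11 positive and 2 negative calls among 31, with a median of 0.23. In all 41.9% were called, beside 14.5% of all genes tested. Pvt1, the neighbour of Myc, was at 7.26, 8.04 and 7.89 CPM in the WT libraries, 4.17, 3.40 and 3.82 in the Tet2KO libraries, 7.47, 6.92 and 7.10 in the Id1KO libraries and 7.10, 7.06 and 6.20 in the dKO libraries. Tet2KO alone was low, and the interaction was 0.95 ± 0.15 (SE, adjusted p = 0.0003). Igf2r, an imprinted receptor gene, had the same form at 27.6, 15.3, 28.8 and 23.7 CPM and gave 0.57 ± 0.09 (SE, adjusted p = 0.0002). Malat1, an abundant nuclear RNA, was high in Id1KO alone and gave -0.20 ± 0.04 (SE, adjusted p = 0.0027). Xist had the largest interaction of the list, 2.63 ± 0.10 (SE, adjusted p = 9.3e-14), and overlaps its antisense partner Tsix. Of the 10 sex genes 3 were positive and 3 negative, 60% in all. The Y-linked Ddx3y, Uty and Kdm5d gave -1.03 ± 0.06, -0.57 ± 0.07 and -0.52 ± 0.08, each with WT low, and the X-linked Eif2s3x gave 0.33 ± 0.04.

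The remaining genes at the extremes need their copies in view. Hist1h4m had the largest interaction, 8.23 ± 0.13 (SE, adjusted p = 4e-20), as it was at 2.03, 1.98 and 0.660 CPM in the Id1KO libraries and between 459 and 683 CPM in all others. It is 1 of 9 near-identical H4 genes, and their sum gave 0.20 ± 0.06 (adjusted p = 0.034). Ahcy, which clears S-adenosylhomocysteine, gave -1.14 ± 0.07 (SE, adjusted p = 1.1e-09) alone and 0.10 ± 0.04 (adjusted p = 0.13) when summed with the copies Gm4737 and Gm9826, so the direction turned and the call was lost. Adnp gave -1.91 ± 0.40 alone and -0.05 ± 0.04 (adjusted p = 0.45) with the overlapping Gm20716, and Amd2 2.34 ± 0.32 alone and 0.08 ± 0.04 (adjusted p = 0.19) with Amd1 and Amd-ps3. The single-gene values of these 4 are uncertain, since they share reads with near-identical or overlapping genes. Rnu3a and Snora74a kept the sign in the sum but fell to 0.44 ± 0.06 (adjusted p = 0.0001) and 0.59 ± 0.05 (adjusted p = 4.3e-08), and Xlr3b with Xlr3a gave 1.61 ± 0.17 (adjusted p = 1.7e-06). Rn7s2 summed with its copies Rn7s1, Rn7s6 and Gm26461 gave 1.23 ± 0.07.

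For the other genes at the extremes, described next, no near-identical copy was found. Myh10, non-muscle myosin heavy chain IIB (chr11:68691559-68816632, plus strand, GRCm38), was at 57.7, 55.8 and 54.7 CPM in the WT libraries, 30.3, 28.8 and 29.2 in the Tet2KO libraries, 47.1, 47 and 44.8 in the Id1KO libraries and 63, 58 and 55.2 in the dKO libraries, low in Tet2KO alone, with 1.27 ± 0.07 (SE, adjusted p = 9e-11). Ntn4, a netrin, had the same form at 5.83, 1.91, 5.50 and 4.53 CPM, with 1.32 ± 0.23. Among negative genes, Rbm44, an RNA-binding protein of germ cells, was at 1.45, 1.96 and 2.11 CPM in the WT libraries, 7.17, 8.99 and 8.62 in the Tet2KO libraries, 3.57, 3.69 and 3.74 in the Id1KO libraries and 5.64, 6.29 and 5.14 in the dKO libraries and gave -1.54 ± 0.21 (SE, adjusted p = 3.8e-05). Ablim1, an actin-binding protein, was highest in Tet2KO and gave -1.04 ± 0.14. Eps8l1, a signalling adaptor, was higher with the Id1 label on both backgrounds, by 2.52 ± 0.13 and 1.55 ± 0.14, and the smaller second step gave -0.97 ± 0.20 (SE, adjusted p = 0.0029). Timp3, an inhibitor of metalloproteinases, was high in Id1KO alone and gave -1.11 ± 0.20; it overlaps Syn3 on the opposite strand.

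Weaker interactions closed the negative group. Psma8, a testis form of a proteasome subunit, was high in Tet2KO and gave -0.93 ± 0.20. The chromatin reader Phf13 gave -0.89 ± 0.15, Entpd1, the ectonucleotidase CD39, -0.87 ± 0.18, and Fam102a -0.86 ± 0.15. In each of the last 3 the mean was highest in Tet2KO and lowest in dKO.

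**Figure D5:**
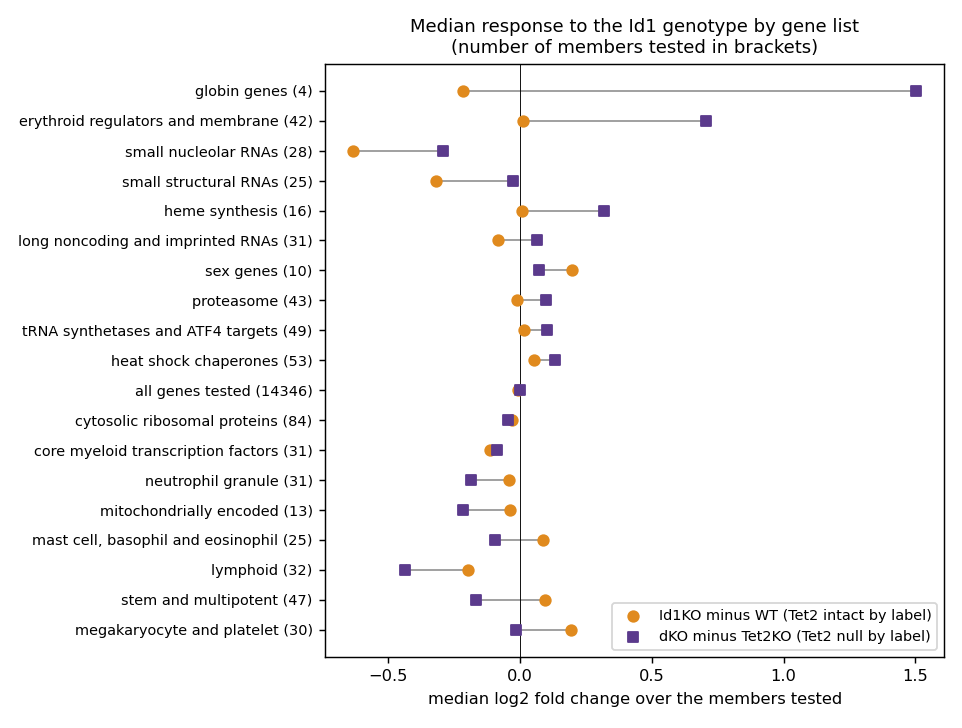
Points give the median log2 fold change of each list in Id1KO against WT (orange circles) and in dKO against Tet2KO (purple squares), joined by a line. The gap between these 2 medians need not match the median interaction. For sex genes the line runs from 0.20 to 0.07, while their median interaction was 0.12. For core myeloid factors it runs from -0.11 to -0.09, while their median interaction was -0.02. The gap is widest for globin and erythroid genes, where the orange point is near 0 or below it, while megakaryocyte and stem lists have the orange point to the right of the purple one.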

How the data were processed

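RNA of 12 libraries, 3 per genotype, was prepared with a stranded total RNA kit after ribosomal depletion, per the labels' protocols. The table holds estimated counts per gene that the authors deposited; 5.06% of the values are not whole. Per the submitters' processing notes, STAR and RSEM were used with mm10; versions, annotation and use of strand are not given in the sources used here. All 55450 gene IDs matched GENCODE M21 (GRCm38).

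After rounding, the low-count filter of edgeR (filterByExpr, minimum count 10) was applied and libraries were scaled by TMM. Genes were tested in 1 model of 4 genotype means over all 12 libraries by edgeR's quasi-likelihood test (edgeR 4.0.16, R 4.3.3), with Benjamini-Hochberg adjustment over 14346 genes and a threshold of 0.05. Errors of fold changes are standard errors. CPM used the TMM-scaled totals. Levels in CPM are not divided by gene length and are compared only within a gene. DESeq2 1.42.0, other scalings and filters, a stricter threshold, a fold test, a replicate block and leaving out each library were the alternatives. Near-identical genes (95% identity over at least 200 bases) and overlapping ones were summed as an alternative chosen after seeing the data. In counts simulated on these libraries with 200 changed genes, the interaction test recovered 74.5% of 2-fold and 23.5% of 1.2-fold interactions, with 10 false calls among 14166 genes and 5 among 14188.

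The 49 gene lists, their members and the tests were chosen with earlier results of these data known. Genes were named by rule: Tet2, Id1, the 15 most positive and 15 most negative interactions called in every leave-one-out fit at 5 CPM or more (leaving out gene models, clones and Riken names), and of 13 lists with the largest medians or shares called up to 4 called members and the 2 most abundant. Other members of those lists, and those of the lists given by counts, were named after their values were seen. All 12 pairs of libraries within a genotype differed by more than sampling noise, so none was counted as a repeat deposit. The depths limit precision to counting error and the spread between 3 libraries. No column of the table was left out. A few named genes are not reported here.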

Additional observations from a re-analysis of the deposited data

Results flagged for a closer look

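For 2078 genes the response to the Id1 label differed between the Tet2 backgrounds by the interaction test (edgeR, adjusted p under 0.05). Given below as log2 values are Id1 and those of the 15 most positive and 15 most negative genes at 5 CPM or more, gene models left out, whose interaction exceeded 2-fold. There were 3 libraries per genotype, and these calls held in all 12 fits with a library left out. Other genes over 2-fold, as Slc4a1, Dmtn and Sptb, stand with their lists above.

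The negative ones were the heat shock genes Hspa1a (-2.92) and Hspa1b (-2.61), Rbm44 (-1.54), Id1 (-1.40), Socs3 (-1.34), Timp3 (-1.11), Ablim1 (-1.04) and the Y-linked Ddx3y (-1.03). Adnp (-1.91) and Ahcy (-1.14) lost the call once overlapping or near-identical genes were summed.

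The positive ones of the erythroid lineage were Hbb-bt (1.85), Hbb-bs (1.75), Hba-a2 (1.68), Hba-a1 (1.48), Epb42 (1.41) and Ctse (1.34). Outside it were Xist (2.63), Xlr3b (1.83), Ntn4 (1.32), Myh10 (1.27) and the structural RNAs Rnu3a (1.76), Snora74a (1.75) and Rn7s2 (1.31). Summed with their overlapping entries, Rnu3a and Snora74a kept the call but fell under 2-fold, to 0.44 and 0.59. With their near-identical copies summed, Rn7s2 gave 1.23 and Xlr3b 1.61. Hist1h4m (8.23) and Amd2 (2.34) are single members of families with near-identical copies. The summed Amd family lost the call, and the summed H4 family kept it at 0.20 ± 0.06 (adjusted p = 0.034).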

How the results depend on the processing

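The counts of called genes moved by more than 1.5 times under 3 alternatives and, for genes over 2-fold, also without the filter. DESeq2 called 1350 interactions (693 positive, 657 negative, 72 over 2-fold), 1342 of them among the 2078, and 1418 genes in Id1KO against WT. A test against a 1.2-fold minimum called 237 (161, 76 and 73), with 140 in Id1KO against WT and 334 in dKO against Tet2KO. The stricter threshold of 0.01 left 972 (523, 449 and 83), with 1085 and 2285 in the 2 responses. With no filter on low counts 2221 genes were called, 223 over 2-fold. Leaving out 1 library gave 1582 to 2161 interactions. Other scalings gave 2067 to 2080 and moved the median of all genes by less than 0.01. The share of positive calls stayed between 48.9% and 55.6% under these settings, except 67.9% with the 1.2-fold minimum.

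Whether replicate numbers pair the samples was not settled. Deviations of same-numbered libraries correlated at -0.10 to 0.11 and those of other numbers at -0.10 to 0.17. Same-numbered pairs that included WT were all positive, at 0.02 to 0.09, and the rest had both signs. Of 12 libraries, 6 correlated best with their own number. With a replicate block 1871 interactions were called, 1834 of them among the 2078. Of the single genes in the text, 1 changed direction: Ahcy summed with its copies gave 0.10. No genotype can be tested if its libraries are repeats of 1 sample, and genes of low counts, as Slc4a1 and Il5ra, carry the widest errors.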

Other observations

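Mitochondrially encoded genes were negative in 5 of 13 and positive in none, beside 7.03% negative and 7.46% positive calls among all genes tested, with a median of -0.19. The subunit genes mt-Nd3 and mt-Atp6 gave -0.48 ± 0.10 (SE, adjusted p = 0.0034) and -0.43 ± 0.10 (SE, adjusted p = 0.006), with mean levels of 155, 113, 186 and 97.4 CPM and 437, 359, 480.1 and 293 CPM in WT, Tet2KO, Id1KO and dKO. Each has a near-identical copy with counts of its own, Gm28438 for mt-Nd3 (99.7% identity) and Gm10925 for mt-Atp6 (100% identity). Neither gene was summed with its copy, so both single-gene values are uncertain. Mitochondrial ribosomal protein genes, which are encoded in the nucleus, were positive in 13 of 78 and negative in 1 (median 0.13). With both directions counted 17.9% were called, near the 14.5% of all genes tested. The positive count fell to 5 without WT replicate 2, without dKO replicate 3 and with DESeq2. Interferon response genes were positive in 10 of 73 and negative in 2 (median 0.11), 16.4% called in all and so near the 14.5% of all genes tested. The antiviral genes Isg20 and Oasl1 gave 0.94 ± 0.16 (SE, adjusted p = 0.00043) and 0.85 ± 0.15 (SE, adjusted p = 0.00058), both lowest in Tet2KO. Polycomb genes were negative in 7 of 38, TGF-beta and BMP genes in 5 of 28, and neither list had a positive call. These shares of 18.4% and 17.9% stand beside 7.03% negative calls among all genes. With both directions counted they are near the 14.5% of all genes tested.

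In the marker sums kept as a check for other cells, macrophage genes (Adgre1, Vcam1, C1qa, C1qb and Cd5l) were at 37.9 to 41.2 CPM in WT, 29.0 to 33.6 in Tet2KO, 35.4 to 38.1 in Id1KO and 22.4 to 24.7 in dKO, so dKO was lowest. Vcam1 made up most of the sum, at 30.3, 17.6, 29.5 and 12.7 CPM, while Adgre1 was highest in Tet2KO and lowest in Id1KO, at 7.66, 12.5, 5.57 and 9.23 CPM. Their part in the results was not tested. C1qa, C1qb and Cd5l stayed under 1 CPM in every library.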
